A study of Mus musculus with 26 samples.

Results

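The 10 genes described here were grouped under the piRNA pathway and the Tudor-domain proteins of germ cells. All were followed in the frontal cortex of mice with an Adnp frameshift. They are Piwil2, Rnf17, Tdrd1, Tdrd5, Tdrd9, Ddx4, Ddx25, Mov10l1, Gpat2 and Mael, and they make up 10 of the 55487 genes in the count tables. They were picked by symbol with their HET and WT levels already known, so the difference in RNA level between the genotypes is a description here and supports nothing by itself. The count per gene was read in each library, and open-chromatin peaks were looked up within 5 kb of each gene start.

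PIWI proteins are a germline branch of the Argonaute family, and they carry small RNAs called piRNAs that match transposon transcripts. Long piRNA precursors are unwound by RNA helicases and trimmed at the surface of mitochondria, and Tudor domains hold the machinery together by binding methylated arginines on the PIWI proteins. In mice the pathway is known mainly from testis, where its loss releases transposons and stops sperm production. Most of its genes are kept silent in somatic tissues by promoter DNA methylation and by repressor complexes.

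RNA was sequenced from frontal cortex of 7 HET mice, which carry the Adnp frameshift on one allele, and of 7 WT littermates with both alleles intact, all of them adolescent. Adnp codes for a homeodomain and zinc finger protein that acts with the remodeler CHD4 and with HP1. The animals otherwise share the same tissue and treatment as far as the labels say, and each library stands for one mouse. The libraries HET 1 to HET 4 have total RNA as their molecule label, while HET 5 to HET 7 and the WT libraries have polyA RNA, although the protocol text describes poly-T selection for all of them. Open chromatin came as a single list of peaks per genotype, with neither peak heights nor replicate values.

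Library totals were 33280785 to 47079906 counts in HET and 32814841 to 48291175 counts in WT. Adnp itself averaged 6.90 ± 1.30 in HET libraries and 6.55 ± 0.875 in WT libraries, in TMM-scaled counts divided by library size (CPM, mean ± SD, n = 7 each). A frameshift can leave the amount of mRNA as it was, and the genotype labels are therefore not checked by this level. The cortical excitatory neuron markers were detected in every library, but their mean log2 CPM was lower in HET, at 6.30 ± 1.43 against 7.75 ± 0.83 in WT. The summed CPM of those 7 markers ran from 906 to 6385 in HET and from 2774 to 8331 in WT. Thalamic neuron markers had the higher mean log2 CPM in HET, at 5.79 ± 1.15, against 4.68 ± 0.91 in WT. In the edgeR fit 0 of the 7 excitatory markers were called (5 at an unadjusted p under 0.05, 0 by DESeq2 and 3 by limma-voom), and 0 of the 7 thalamic ones (4 at an unadjusted p under 0.05, and 1 by each of the other tools). Camk2a, the excitatory marker with the highest WT level, averaged 1924 ± 867 CPM over HET libraries, against 3183 ± 869 CPM over WT libraries. Rora, the thalamic one, averaged 121 ± 81.9 CPM over HET libraries, against 80.4 ± 21.9 CPM over WT libraries. All 7 thalamic markers had a positive log2 fold change, from 0.59 to 2.30 with a median of 1.21. All 7 excitatory markers had a negative one, with a median of -1.15. All 6 microglia markers had a negative log2 fold change (median -0.24), with a mean log2 CPM of 4.61 ± 0.24 in HET, against 4.89 ± 0.10 in WT; edgeR called 0 of them (3 at an unadjusted p under 0.05, 1 by DESeq2, 0 by limma-voom). Inhibitory neuron, astrocyte, oligodendrocyte, endothelial, choroid plexus and striatal lists had medians of -0.19 to 0.35, with 0 called by edgeR in each, 0 to 2 at an unadjusted p under 0.05, and 0 to 1 called by DESeq2 or limma-voom. Of all genes tested, 22.2% had an unadjusted p under 0.05. All 7 striatal markers had a positive log2 fold change, from 0.20 to 0.76 with a median of 0.35. All 7 oligodendrocyte markers had a positive one too, from 0.08 to 0.21. Choroid plexus and striatal markers had a wide spread between libraries of one genotype. Choroid plexus markers summed to 24.8 to 740 CPM over HET libraries, against 9.71 to 433 CPM over WT libraries. Striatal markers summed to 140 to 2248 CPM (HET) and 173 to 1619 CPM (WT). The part of the microglia, choroid plexus and striatal markers in the results below was not tested.

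Promoter sequences of 4 genes with larger differences, and of Ddx25 as the one with a far higher level, are shown first because most of the promoters hold the same short motifs. RefSeq promoter windows (build GRCm38.p6, 250 bases before the start site and 50 from it on) were found for 8 of the 10 genes; Rnf17 and Piwil2 had no entry. Capitals mark the E-box CACGTG and the E2F core GCGGGA, the second also on the opposite strand as TCCCGC. Tdrd9 lies at chr12:111971309-111971608 on the plus strand, Tdrd1 at chr19:56825959-56826258 on the plus strand, and Gpat2 at chr2:127424949-127425248 on the plus strand. Mael lies at chr1:166238695-166238994 on the minus strand and Ddx25 at chr9:35558421-35558720 on the minus strand.
Tdrd9: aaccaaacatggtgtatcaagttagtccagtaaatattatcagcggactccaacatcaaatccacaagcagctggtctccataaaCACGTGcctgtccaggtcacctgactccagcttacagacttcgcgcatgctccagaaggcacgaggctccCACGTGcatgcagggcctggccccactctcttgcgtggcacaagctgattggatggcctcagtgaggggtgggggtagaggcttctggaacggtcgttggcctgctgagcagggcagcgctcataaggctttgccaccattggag
Tdrd1: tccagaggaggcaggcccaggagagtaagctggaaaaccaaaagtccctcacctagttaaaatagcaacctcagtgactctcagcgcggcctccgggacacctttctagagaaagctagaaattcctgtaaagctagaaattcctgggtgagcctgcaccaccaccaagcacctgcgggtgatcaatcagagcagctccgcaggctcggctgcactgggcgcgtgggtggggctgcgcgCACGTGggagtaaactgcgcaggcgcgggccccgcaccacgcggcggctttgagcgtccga
Gpat2: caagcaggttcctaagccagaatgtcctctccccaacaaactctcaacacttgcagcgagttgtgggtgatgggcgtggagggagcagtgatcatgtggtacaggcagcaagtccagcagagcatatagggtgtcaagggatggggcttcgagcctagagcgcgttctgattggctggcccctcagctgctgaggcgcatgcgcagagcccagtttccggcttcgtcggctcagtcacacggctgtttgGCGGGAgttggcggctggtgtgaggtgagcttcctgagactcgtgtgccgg
Mael: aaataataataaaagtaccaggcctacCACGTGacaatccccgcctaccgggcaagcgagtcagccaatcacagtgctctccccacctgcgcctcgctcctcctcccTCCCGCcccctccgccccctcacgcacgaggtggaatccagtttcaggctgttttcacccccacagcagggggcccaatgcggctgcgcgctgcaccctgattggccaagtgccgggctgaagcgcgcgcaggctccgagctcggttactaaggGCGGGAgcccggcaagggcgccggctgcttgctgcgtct
Ddx25: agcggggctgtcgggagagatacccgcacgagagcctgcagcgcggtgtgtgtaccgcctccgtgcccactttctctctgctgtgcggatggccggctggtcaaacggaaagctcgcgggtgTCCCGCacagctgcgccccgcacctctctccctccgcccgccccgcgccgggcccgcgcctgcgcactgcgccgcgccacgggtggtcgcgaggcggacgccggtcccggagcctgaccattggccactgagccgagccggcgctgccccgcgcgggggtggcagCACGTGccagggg

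An E-box was present in 6 of the 8 promoters, against 7.15% of all 32851 promoter windows searched the same way. Tdrd9 held E-boxes 165 and 95 bases before its start site, and Tdrd1 held one 11 bases before it. Ddx4 (chr13:112652261-112652560, minus strand) had its E-box 29 bases before the start site, Mael 223 and Mov10l1 (chr15:88982744-88983043, plus strand) 246 bases before it, and Ddx25 37 bases after it. The 2 promoters without an E-box were those of Gpat2 and Tdrd5.

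The E2F core was present in 5 of the 8 promoters, against 19.98% of all windows. In Gpat2 the match began 1 base before the start site, so that it runs across the start. Mael had matches 143 bases before and 11 bases after its start, and Ddx4 and Ddx25 had one 136 and 128 bases before theirs. Tdrd5 (chr1:156303299-156303598, minus strand) had one 249 bases before the start site of its window, at the window's edge. Both motifs occurred together in Mael, Ddx4 and Ddx25, which is 3 of 8, against 1.99% of all windows. The 2 motifs were read on both strands, and no match of one overlapped a match of the other in these promoters.

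The palindrome GGCGCC was present in 1 of 8, in Mael, against 11.9% of all windows, and the TATA box TATAAA in 0 of 8, against 13.6%. GC content ran from 55.7% in Tdrd9 to 76.0% in Tdrd5, with a median of 52.7% over all windows. The ratio of observed to expected CpG ran from 0.43 in Tdrd9 to 1.11 in Tdrd5, with a median of 0.384 over all windows. GC-rich windows hold more matches to GC-rich motifs, and the shares above are not adjusted for it. A match is a string of letters, and binding was not measured.

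RNA of Rnf17 was 4.16 times as abundant in HET as in WT cortex, and no HET library overlapped a WT library. Mael RNA also separated the genotypes completely, at lower counts. Gpat2, Tdrd9 and Tdrd1 followed with higher means in HET and some overlap, Ddx4, Tdrd5 and Ddx25 with smaller differences, and Piwil2 with almost none. Mov10l1 was too rare to test. The RNA is from whole tissue, so more cells with a transcript and more transcript per cell cannot be told apart.

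**Figure D1:**
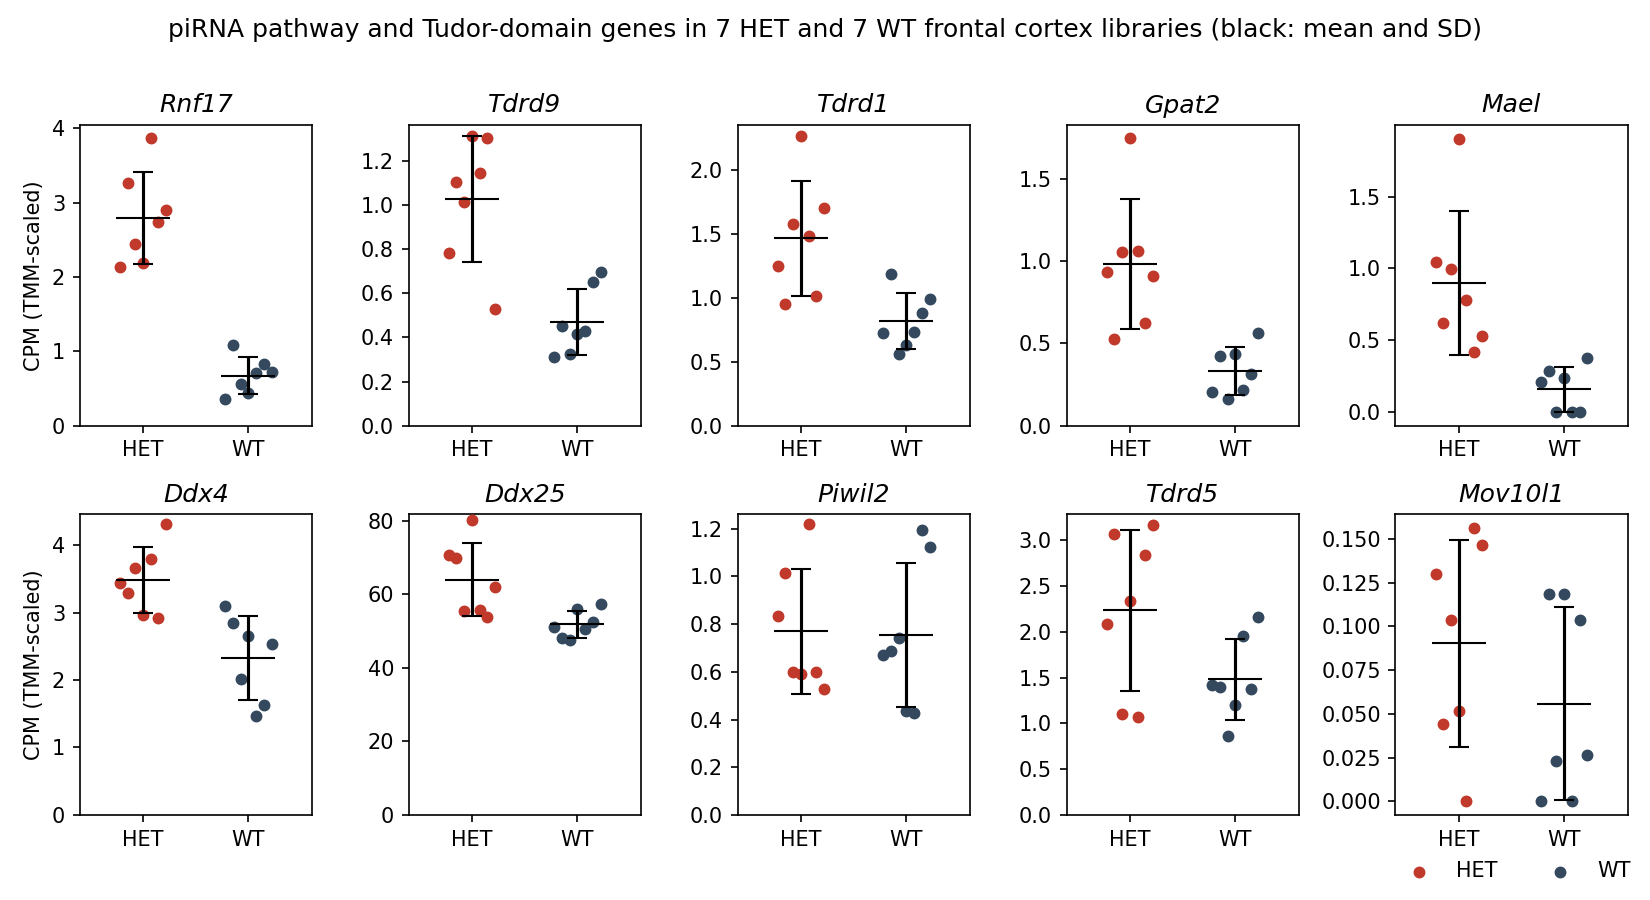
Each panel plots 1 gene, with its TMM-scaled CPM on the vertical axis and the 7 HET and 7 WT libraries as points, the black cross giving mean and SD. Rnf17 and Mael show no overlap between HET and WT, Piwil2 shows nearly full overlap, and Ddx25 lies on a scale of 47.6 to 80.2 CPM while the other 9 genes stay under 5 CPM.

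Piwil2 encodes MILI, the PIWI protein that binds primary piRNAs in mouse germ cells (chr14:70372477-70429383, minus strand, GRCm38, as for all gene positions here). Its lowest, median and highest levels were 0.528, 0.601 and 1.22 CPM in HET and 0.429, 0.687 and 1.19 CPM in WT. Only 1 HET library, HET 5, lay above the highest WT library, and the ranges covered each other almost fully. The log2 fold change of HET over WT was 0.03 with a 95% interval from -0.57 to 0.64, an interval that leaves room for a difference in either direction.

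Rnf17 encodes a protein with a RING finger and several Tudor domains, which forms its own granules in male germ cells and restrains piRNA amplification in mouse testis (chr14:56402581-56525032, plus strand). Its levels were 2.13, 3.26, 2.44, 2.19, 3.87, 2.74 and 2.91 CPM in HET 1 to HET 7. They were 0.362, 1.09, 0.558, 0.435, 0.705, 0.831 and 0.721 CPM in WT 1 to WT 7. Every HET library stood above every WT library, with a clear gap between the lowest HET and the highest WT library. HET libraries averaged 2.79 ± 0.622 CPM, against an average of 0.671 ± 0.248 CPM for WT libraries (SD, n = 7 each), from 786 counts in HET and 188 in WT. The log2 fold change was 2.05 (SE 0.24, 95% interval 1.55 to 2.56).

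Tdrd9 encodes an RNA helicase with a Tudor domain that works with the nuclear PIWI protein MIWI2 in fetal mouse germ cells (chr12:111971559-112068854, plus strand). Its lowest, median and highest levels were 0.528, 1.10 and 1.31 CPM in HET and 0.310, 0.429 and 0.694 CPM in WT. Of the HET libraries 6 lay above the highest WT library, and HET 7 fell among the WT libraries. This made a log2 fold change of 1.13 (SE 0.25, 95% interval 0.60 to 1.67).

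Tdrd1 encodes a scaffold with several Tudor domains that binds MILI in the granules between mitochondria (chr19:56826209-56870012, plus strand). From lowest over median to highest, levels were 0.948, 1.48 and 2.26 CPM in HET and 0.558, 0.735 and 1.18 CPM in WT. HET 2 and HET 6 lay within the WT range and the other 5 above it. Its log2 fold change came to 0.84 (SE 0.23, 95% interval 0.35 to 1.33).

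Tdrd5 encodes a Tudor and LOTUS domain protein needed to assemble the chromatoid body of mouse spermatids (chr1:156255296-156303664, minus strand). Levels (lowest, median and highest) were 1.07, 2.34 and 3.17 CPM in HET and 0.860, 1.40 and 2.16 CPM in WT. The HET libraries were the more scattered, with 4 above the highest WT library and HET 3 and HET 5 in the lower part of the WT range. Its fitted log2 fold change was 0.59 (SE 0.28, 95% interval 0.00 to 1.18). Of its exonic bases 2.54% are shared with 4930518J20Rik on the opposite strand, and the counting ignored strand.

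Ddx4 encodes the mouse homolog of Vasa, a DEAD-box helicase used as a marker of germ cells (chr13:112598333-112652475, minus strand). The lowest, median and highest levels of Ddx4 were 2.92, 3.44 and 4.32 CPM in HET and 1.47, 2.54 and 3.10 CPM in WT. Of the HET libraries 5 exceeded the highest WT library, and WT 1 alone exceeded the lowest HET libraries. HET over WT, the log2 fold change was 0.58 (SE 0.17, 95% interval 0.21 to 0.95).

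Ddx25 encodes GRTH, a gonadotropin-regulated DEAD-box helicase that exports and holds mRNAs in spermatids (chr9:35536647-35558528, minus strand). Levels of Ddx25 ran far higher, with a lowest, median and highest value of 53.7, 62.0 and 80.2 CPM in HET and 47.6, 51.2 and 57.4 CPM in WT. HET 1, HET 2, HET 4 and HET 7 lay above the WT range, and the other 3 HET libraries within it. A small log2 fold change of 0.30 was fitted (SE 0.09, 95% interval 0.11 to 0.49). The HET libraries labelled total RNA averaged 69.0 CPM and those labelled polyA RNA 57.2 CPM.

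Mov10l1 encodes the germ cell helicase that binds piRNA precursors and starts their processing (chr15:88982909-89055152, plus strand). It had 25 counts over the 7 HET libraries and 17 over the 7 WT libraries, and it was at 0 in HET 5, WT 1 and WT 5, where 3 counts would be 0.0776 to 0.0919 CPM. It did not pass the filter on low counts, and a difference was not detectable at this depth (log2 fold change 0.63, SE 0.85, with no filter).

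Gpat2 encodes a mitochondrial protein of the glycerol-3-phosphate acyltransferase family that binds MILI and takes part in primary piRNA production in mouse testis (chr2:127425199-127436092, plus strand). Its lowest, median and highest levels were 0.529, 0.937 and 1.75 CPM in HET and 0.163, 0.312 and 0.561 CPM in WT. Of the HET libraries 6 lay above the WT range, HET 4 highest of all, and HET 2 just under the highest WT library. Here the log2 fold change was 1.55 (SE 0.32, 95% interval 0.86 to 2.24).

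Mael encodes Maelstrom, an HMG-box protein needed to silence transposons in mouse spermatocytes (chr1:166201201-166238747, minus strand). Its levels were 1.04, 0.618, 0.994, 1.904, 0.779, 0.417 and 0.528 CPM in HET 1 to HET 7. They were 0.207, 0.284, 0, 0.237, 0, 0 and 0.374 CPM in WT 1 to WT 7, where 3 counts would be 0.0697 to 0.0919 CPM in the libraries at 0. Every HET library was above every WT library, and HET 4 stood well apart from the other HET libraries. The sums were 254 counts in HET and 46 counts in WT, and the log2 fold change was 2.47 (SE 0.66, 95% interval 1.07 to 3.87). Of the 14 Mael counts 3 were 0 and the others were even numbers, 6 of them from 1 to 20, a range in which 69.9% of the counts of all genes were even. The mates of a read pair were counted separately. The total RNA label went with 1.14 CPM and the polyA RNA label with 0.575 CPM among HET libraries.

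Of the 10 genes, 9 passed the filter on low counts, and all 9 had a positive log2 fold change, with a median of 0.84. Over all 18050 genes tested the median was 0.02, and 9619 were positive. In the edgeR quasi-likelihood fit over all genes, Rnf17 (adjusted p = 0.000994), Gpat2 (adjusted p = 0.0456) and Tdrd9 (adjusted p = 0.0482) fell under the threshold of 0.05. That is 3 of 9, where 0.587% of all genes tested were called higher in HET and 0.97% were called in either direction. Rnf17 and Mael are the 2 of 9 whose HET libraries all exceeded all WT libraries, where 0.432% of the genes tested did. DESeq2 and limma-voom each called 7 of the 9, leaving out Tdrd5 and Piwil2, within 1503 and 1934 called genes of the table. Nothing is read from these counts, since the same contrast was known when the genes were picked. No gene of the 9 was called lower, where 0.382% of all genes tested were.

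**Figure D2:**
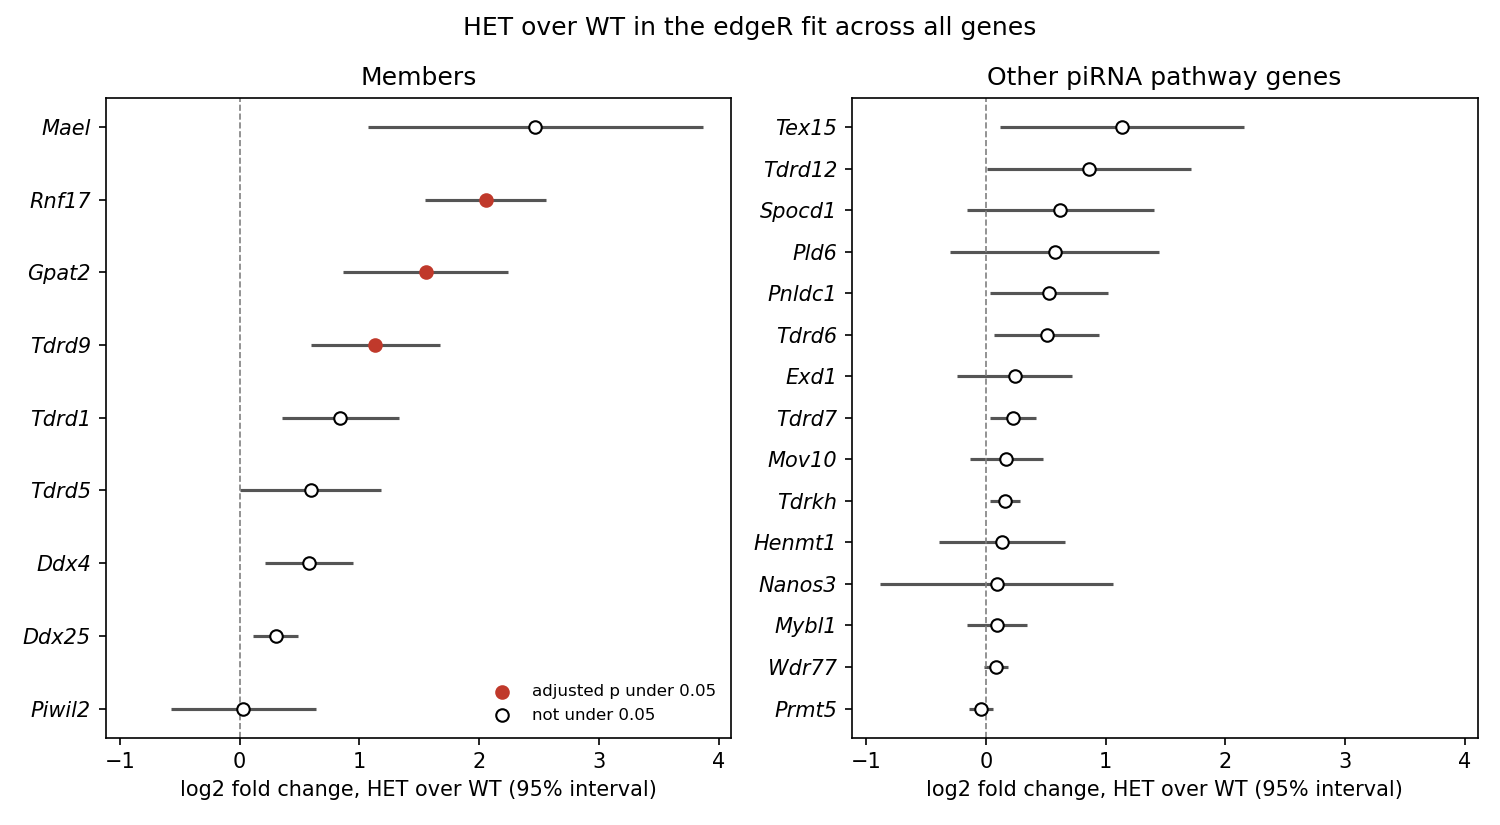
Points give the log2 fold change of HET over WT and lines its 95% interval, for the 9 tested genes on the left and for 15 other piRNA pathway genes on the right, with filled points for adjusted p under 0.05. The left panel runs from 2.47 in Mael down to 0.03 in Piwil2, and on the right the highest value is 1.14 in Tex15 and no point is filled.

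The libraries can also be compared one by one. Each HET library had 6 to 8 of the 10 genes above the highest WT library, and 8 to 10 of them above the WT median. Over all genes tested, 13.9% to 26.4% lay above the highest WT library in a HET library, and 50.1% to 51.8% above the WT median. The WT libraries had 1 to 8 of the 10 genes above that median. As these genes were picked with their levels known, nothing is read from the counts. Summed without Ddx25, whose level would swamp the others, the genes came to 12.6 to 15.4 CPM in HET. In WT the same sum was 5.25 to 9.18 CPM, with no overlap. Nothing is read from this sum either, as it is of the same picked genes. With Ddx25 included the sums overlapped, at 66.4 to 95.5 CPM in HET and 52.9 to 66.6 CPM in WT. So did those of the other piRNA pathway genes, at 175 to 201 CPM in HET and 159 to 185 CPM in WT. The list of other germ cell genes summed to 38.8 to 49.5 CPM in HET and 38.6 to 47.5 CPM in WT. HET 4 was the highest HET library for Tdrd9, Tdrd1, Gpat2, Mael and Ddx25, while HET 5 was highest for Rnf17 and Piwil2. HET 7 was highest for Ddx4 and Tdrd5 but lowest for Tdrd9 and Piwil2. Among WT libraries, WT 7 was the highest for Tdrd9, Gpat2, Mael, Ddx25 and Tdrd5. No library was thus high for all of the genes.

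**Figure D3:**
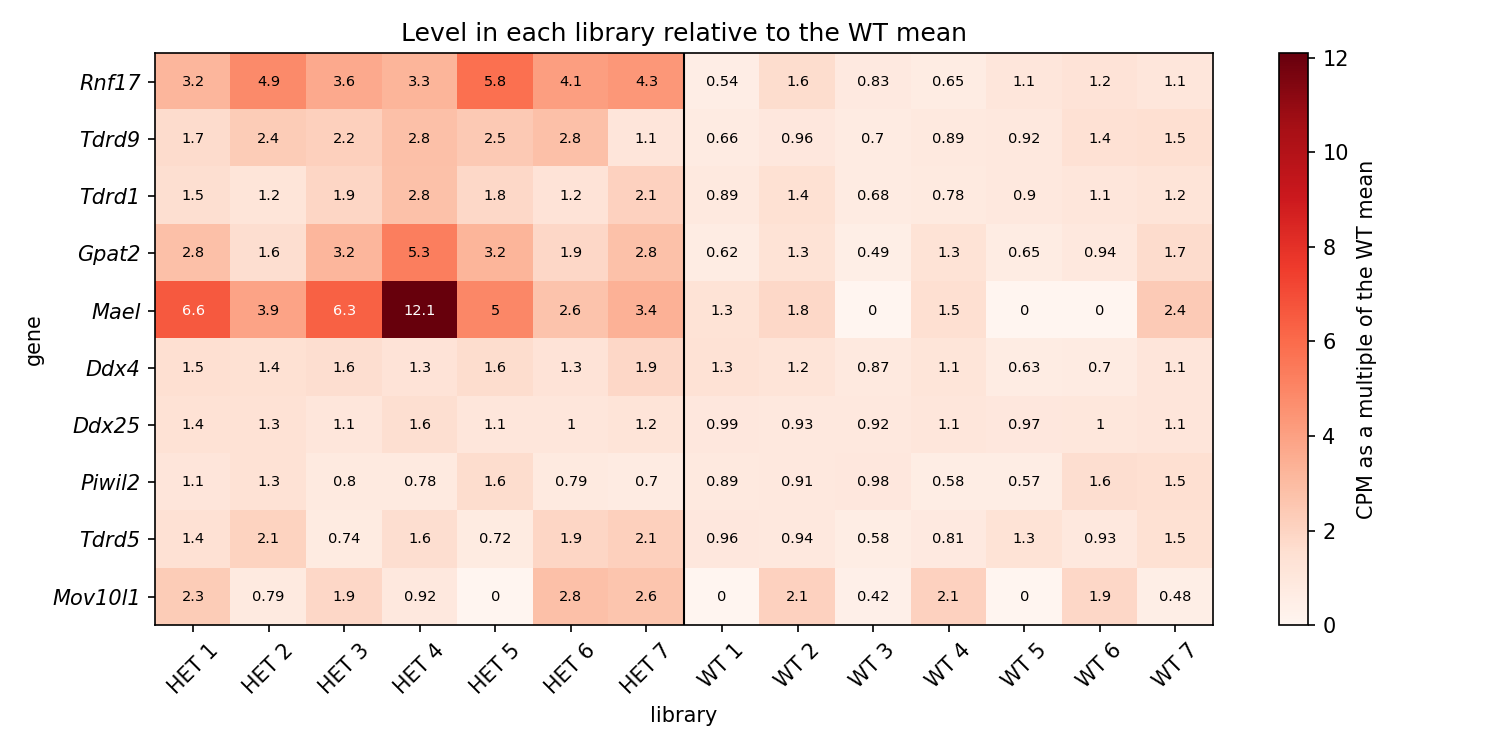
Each cell gives the level of 1 gene (rows) in 1 library (columns, HET left and WT right of the line) as a multiple of that gene's WT mean CPM. Rnf17 is at 3.18 or more in every HET library, Mael reaches 12.1 in HET 4, and Piwil2 is about as high in HET 5 as in WT 6.

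Read per length (CPM per kilobase of exon), Ddx25 led in both genotypes with 9.22 in HET and 7.48 in WT, and Ddx4 came next with 1.16 in HET and 0.771 in WT. In HET these were followed by Mael at 0.518, Rnf17 at 0.447, Gpat2 at 0.374, Tdrd5 at 0.323, Tdrd1 at 0.269, Tdrd9 at 0.190, Piwil2 at 0.146 and Mov10l1 at 0.0216. Among HET libraries every gene overlapped the next in that order except Ddx25 over Ddx4 and Piwil2 over Mov10l1. In WT the order after Ddx4 was Tdrd5 at 0.214, Tdrd1 at 0.150, Piwil2 at 0.143, Gpat2 at 0.126, Rnf17 at 0.108, Mael at 0.0908, Tdrd9 at 0.0863 and Mov10l1 at 0.0133. Among WT libraries neighbours in the order overlapped except Ddx25 over Ddx4, Ddx4 over Tdrd5 and Tdrd9 over Mov10l1. Rnf17 stood at place 4 in HET and place 7 in WT, and Mael at place 3 in HET and place 8 in WT.

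The call of Rnf17 did not depend on any one library: without each in turn its log2 fold change was 1.95 to 2.21 and edgeR's adjusted p at most 0.00445. Gpat2 kept its call in 3 of these 14 fits, without HET 5, HET 6 or WT 4, and its log2 fold change stayed between 1.35 and 1.72. Tdrd9 kept its call in 2 of them, without HET 6 or WT 4, with a log2 fold change between 1.06 and 1.25. Mael and Ddx25 were called without HET 6 or without WT 4, and Tdrd1 without HET 6. With the mean of the excitatory markers in the fit, the log2 fold change was 2.28 for Rnf17, 1.78 for Mael, 1.11 for Gpat2, 1.05 for Tdrd9 and 0.11 for Ddx25. With the thalamic markers it was 2.14 for Rnf17, 1.89 for Mael, 1.13 for Gpat2, 1.05 for Tdrd9 and 0.14 for Ddx25. In both of these fits Rnf17 alone of the 9 genes was called. With HET libraries labelled polyA RNA only, the log2 fold change of Rnf17 was 2.23 (edgeR adjusted p = 0.0354), that of Mael 1.83 and that of Ddx25 0.14. The total RNA label is held by HET libraries alone, so no such value can be had within it.

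The profiles nearest to those of the called genes, by the root-mean-square difference of centred log2 CPM over the 14 libraries, were found among all genes tested. For Rnf17 they were Sycp2 (0.393), Gm15707 (0.593) and Mybpc2 (0.601). For Tdrd9 they were Syt10 (0.245), 9230116N13Rik (0.280) and Gm7173 (0.333), and for Gpat2 they were Gm4681 (0.377), Prr33 (0.378) and Fign (0.421). Sycp2, which averaged 5.48 CPM in HET and 1.35 CPM in WT, thus lay nearer to Rnf17 than any other gene tested. Its log2 fold change was 2.02, against 2.05 for Rnf17. Profiles were centred over all 14 libraries, so the difference between HET and WT is part of this distance. Variation shared within a genotype was not tested.

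No other gene of the piRNA pathway was called. A list of 30 further genes of the pathway had 29 matches in the tables, of which 15 passed the filter. In the edgeR fit 0 of the 15 were called, where 0.97% of all genes tested were, and DESeq2 and limma-voom also called 0. An unadjusted p under 0.05 was held by 6 of the 15 and by 22.2% of all genes tested. Of the 15, 14 had a positive and 1 a negative log2 fold change, with a median of 0.22, against 0.02 over all genes tested. The gene of the list with the highest WT level per length was Prmt5, the arginine methyltransferase that makes the marks Tudor domains bind, with 13.7 CPM per kilobase in HET and 14.1 in WT, and a log2 fold change of -0.04 (SE 0.05). The following are named after their values were seen. Tex15, a partner of MIWI2 in transposon methylation, averaged 2.47 ± 0.830 CPM over HET libraries, against 1.12 ± 0.882 CPM over WT libraries; its log2 fold change was 1.14 and edgeR's adjusted p 0.180. Tdrd12, another Tudor helicase, had a log2 fold change of 0.86, and Tdrd6, a chromatoid body protein, one of 0.51, with edgeR's adjusted p at 0.221 and 0.167. Tdrd7 and Tdrkh, which were well expressed, had log2 fold changes of 0.22 and 0.16.

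The 14 genes of that list that did not pass the filter were close to 0 throughout. Fkbp6, a cochaperone of piRNA loading, had 39 counts over the HET libraries and 4 over the WT libraries. Stk31, a Tudor-domain kinase of testis, had 50 counts in HET and 18 in WT. Piwil1, the PIWI gene of later spermatogenesis, had 61 counts in HET and 49 in WT. Piwil4, which encodes MIWI2, had 31 counts in HET and 10 in WT. Piwil2 came to 218 counts in HET and 211 in WT, so all 3 PIWI genes of the mouse were at low levels in both genotypes.

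The lists of somatic relatives that follow are to be read against the same 22.2% of all genes tested at an unadjusted p under 0.05. Their edgeR calls are to be read against the 0.97% of all genes tested that were called. Of 20 somatic Tudor-domain genes 0 were called, with 4 at an unadjusted p under 0.05 and a median log2 fold change of 0.02, while DESeq2 called 2 and limma-voom 1. Of 20 somatic DEAD-box and related helicases 0 were called, with 3 at an unadjusted p under 0.05 and a median of 0.02, while DESeq2 called 0 and limma-voom 1. The median for 8 other acyltransferases, of the GPAT and AGPAT genes, was 0.02, with 0 called and 3 at an unadjusted p under 0.05. DESeq2 and limma-voom each called 1 of them. Argonaute and miRNA genes had 0 called of 13, with 5 at an unadjusted p under 0.05, a median of 0.07, and 1 called by DESeq2 and 3 by limma-voom. The genes with the highest WT level per length in these lists were Kdm4b, Ddx5, Agpat1 and Drosha, whose log2 fold changes were 0.06, 0.02, -0.14 and -0.01.

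Known repressors of germline genes, among them E2F6, the MGA and PCGF6 complex, SETDB1, the DNA methyltransferases and the ADNP complex, were followed as a list of 24. In the edgeR fit 0 of the 24 were called, with 5 at an unadjusted p under 0.05 (22.2% over all genes tested), while DESeq2 called 1 and limma-voom 2. The median log2 fold change was 0.04. Yaf2, which had the highest WT level per length of this list, averaged 87.5 ± 4.70 CPM over HET libraries, against 102 ± 13.0 CPM over WT libraries. Its log2 fold change was -0.22 (edgeR adjusted p = 0.121).

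A list of 34 germ cell genes outside the piRNA pathway, of which 14 passed the filter, gave 1 call in edgeR. Of all genes tested, 0.587% were called higher in HET. Syce1, which encodes a central element protein of the synaptonemal complex, averaged 0.685 ± 0.275 CPM over HET libraries, against 0.0814 ± 0.0705 CPM over WT libraries (SD, n = 7 each). Its HET libraries all exceeded its WT libraries, and its log2 fold change was 3.00 (SE 0.53, edgeR adjusted p = 0.0332). Its call held in the fits that left out HET 3, HET 5, HET 6, WT 2 or WT 4, and in none of the other 9 of the 14. Sycp2, named above and also of the synaptonemal complex, was not on this list and was called (log2 fold change 2.02, edgeR adjusted p = 3.27e-05). The median of the 14 tested genes of the list was 0.18, with 10 positive and 4 negative. Brdt, which had the highest WT level per length of the list, had a log2 fold change of -0.23 (SE 0.09). Of 11 markers of male germ cells 3 passed the filter and 0 were called in edgeR (1 at an unadjusted p under 0.05, 0 by DESeq2 and by limma-voom). Dazl, the one with the highest WT level, averaged 2.93 ± 1.64 CPM over HET libraries, against 3.92 ± 0.521 CPM over WT libraries. The summed CPM of the 11 was 3.60 to 7.19 in HET and 4.37 to 5.90 in WT. Tnp1 and Pgk2 were at 0 in all 14 libraries. Prm1 was not: it passed the filter with 94 counts in HET and 79 in WT (log2 fold change 0.31). Others of the 11, named like those after their values were seen, had more counts in HET. Sycp3, a synaptonemal complex protein, averaged 1.32 ± 0.627 CPM over HET libraries, against 0.671 ± 0.257 CPM over WT libraries, with 5 HET libraries above all WT libraries (log2 fold change 0.97, edgeR adjusted p = 0.123). Sycp1, of the same complex, had 70 counts in HET and 0 in WT, with 2 HET libraries holding counts. Tnp2, a spermatid protein, had 12 counts in HET and 2 in WT. Tex101 had 10 counts in HET and 3 in WT, and Acrv1 had 4 in HET and 0 in WT.

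Markers of motile cilia were looked at because ciliated cells share many transcripts with testis. Of the 11 markers 10 had a positive log2 fold change, 0 were called in edgeR, DESeq2 or limma-voom, and 3 had an unadjusted p under 0.05. Averaged over the 11, log2 CPM reached 1.72 ± 0.29 in HET, against 1.30 ± 0.49 in WT. Foxj1, the master regulator of motile cilia, averaged 11.5 ± 3.47 CPM over HET libraries, against 8.68 ± 2.87 CPM over WT libraries. With this mean in the fit the log2 fold change was 2.07 for Rnf17, 2.32 for Mael, 1.26 for Gpat2 and 0.92 for Tdrd9, and Rnf17 alone of the 9 genes was called.

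None of the neighbouring genes was called, where 0.97% of all genes tested were, so nothing is read from this. The nearest tested gene on each side of the 10 genes gave 20 neighbours, of which 0 were called in the edgeR fit, with a median log2 fold change of 0.09 and a lowest adjusted p of 0.156. The other tools, DESeq2 and limma-voom, gave 0 calls among them too. Of the 20, 1 had an unadjusted p under 0.05 in edgeR, where 22.2% of all genes tested had one. Cenpj, 1729 bases beyond the end of Rnf17, averaged 2.94 CPM in HET and 3.55 CPM in WT. Fahd2a, whose end lies 123 bases from that of Gpat2, averaged 12.8 CPM in HET and 11.4 CPM in WT. The highest value was that of Adra2b, next to Gpat2 on the other side, at 1.26 with an adjusted p of 0.331 in edgeR.

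Open chromatin near these genes was described from the 2 lists, of 30862 peaks for HET and 19272 for WT. With no replicates and with lists of such unequal length, presence in one list and absence from the other is no measure of a difference. A peak lay within 5 kb of the gene start for 5 of the 10 genes in the HET list and for 4 in the WT list. Over all 55487 genes the share was 32.1% in the HET list and 27.2% in the WT list, and over the genes tested it was 71.2% in the HET list and 63.5% in the WT list. Mov10l1 is the gene with a peak in the HET list alone, where 5.86% of all genes were. No gene of the 10 had one in the WT list alone, where 0.984% of all genes were.

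**Figure D4:**
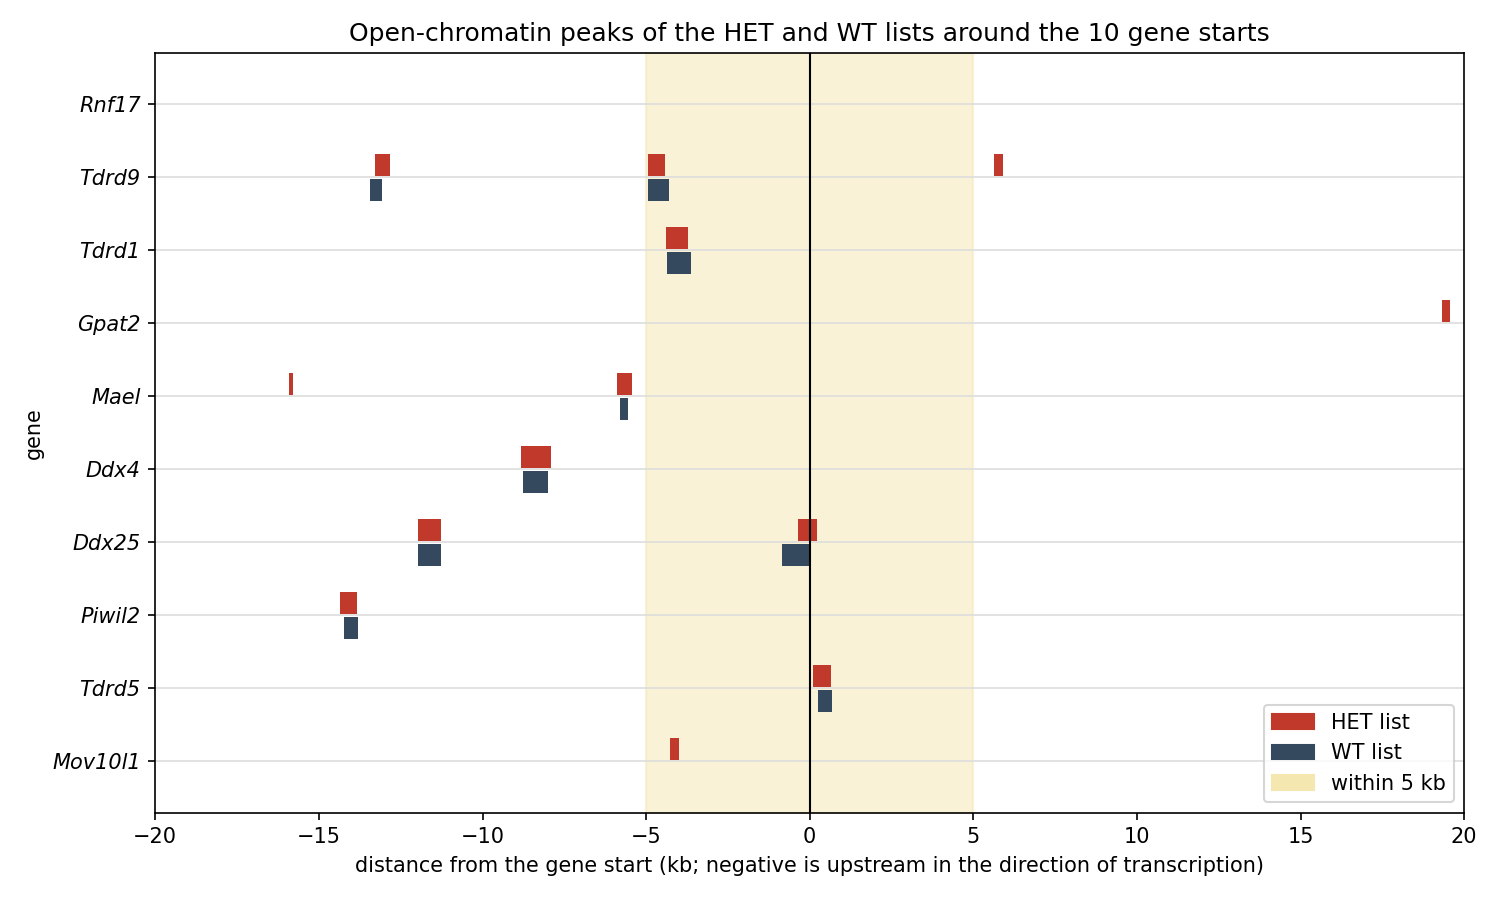
Bars give the peaks of the HET list (upper) and WT list (lower) around each of the 10 gene starts, by distance in kilobases along the direction of transcription, with the 5 kb window shaded. Ddx25 and Tdrd5 alone have peaks at or next to the start in both lists, and Rnf17 has none within the plotted range.

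Ddx25, the most abundant of the genes, had a peak across its own start in both lists, from chr9:35558292-35558888 in HET and chr9:35558522-35559375 in WT. Both of these peaks also cover the start of Pus3, which is read in the opposite direction. Tdrd5 had peaks that began 85 bases downstream of its start in HET and 248 bases in WT. The start of 4930518J20Rik, on the opposite strand, lies inside the HET peak and 73 bases from the WT peak. These distances are from the gene start of the count tables. The start site of the Tdrd5 promoter window, at chr1:156303348, lies inside both peaks. The RefSeq gene start of Tdrd5, at chr1:156304304, lies outside both. The peaks in both lists overlapped the promoter windows of Ddx25 and Tdrd5 and of none of the other 6 genes with a window.

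For the other genes inside the window the peak sat at a neighbour. The Tdrd9 peaks, 4432 bases upstream of its start in HET and 4316 bases in WT, contain the start of Atp5mpl. The Tdrd1 peaks, 3711 bases upstream in HET and 3628 bases in WT, contain the start of Ccdc186. The Mov10l1 peak of the HET list, 3986 bases upstream, lies 84 bases from the start of Mlc1. These 3 are the members nearest to the edge of the window on the inside.

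Outside the window, the nearest peak to Mael was 5430 bases upstream in HET and 5556 bases in WT, just beyond the limit. For Ddx4 it was 7897 bases away in HET and 8013 in WT, at the start of Slc38a9. For Piwil2 it was 13823 bases away in HET and 13805 in WT, at the start of Polr3d. The RefSeq gene start of Piwil2 lies 7515 bases nearer to these Piwil2 peaks than the start used here. Gpat2 had its nearest peak 19327 bases away in HET, at the start of Fahd2a, and 45394 bases away in WT. Rnf17, the gene with the clearest difference in RNA, had its nearest peak 169089 bases away in HET and 233975 in WT. Neither list thus held a peak at the starts of Rnf17, Gpat2, Mael, Tdrd1 or Tdrd9, which does not show that chromatin there was closed.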

How the data were processed

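The authors deposited unscaled counts for every gene, in a table for each library. These were made by featureCounts 2.0.1, per the file headers, from exons joined by gene ID (Ensembl release 102, GRCm38), with strand setting 0 and mates of a pair counted singly. The submitters' processing notes name STAR and Trimmomatic, with no version. The deposited peak lists give chromosome, start and end on mm10 (the GRCm38 assembly), 1 list per genotype. Bowtie2 2.4.4, SAMtools 1.9, bcl2fastq 2.20 and MACS3 were named for them, per the submitters' processing notes. Their depth, caller settings and source libraries were not found in the sources used here. Hi-C was not analysed here.

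Of 55487 gene IDs 55141 matched a symbol, and edgeR's filterByExpr kept 18050 genes. Counts were TMM-scaled and tested with edgeR 4.0.16 (robust quasi-likelihood, genotype as the single term, two-sided, Benjamini-Hochberg over all genes tested, threshold 0.05). CPM in the text is TMM-scaled. P-values measure the spread between these mice. The lowest chi-square per degree of freedom among 91 library pairs was 9.38, so no library was a copy of another. The fit was tested on simulated data. Same-numbered HET and WT libraries did not deviate together (2 of 7 correlations over 0.1), so numbers were not used as pairs. A peak counted when any base of it lay within 5 kb of the gene start in the count tables. Promoter windows are from RefSeq (GRCm38.p6), and their start sites can differ from the gene starts of the count tables. The 10 genes, the gene lists and the tests were chosen with earlier results of these data known.

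Besides the 10 genes, the text names from each list up to 4 called genes with the smallest p and the gene with the highest WT level per length, the 3 nearest profiles of each called gene, tested neighbours, and the marker with the highest WT level. Also run were limma-voom (limma 3.58.1) with sample weights, DESeq2 1.42.0, edgeR with size factors from DESeq2, no filter or 1 CPM in 7 libraries, a replicate block, libraries labelled polyA RNA, 1 surrogate variable (sva 3.50.0), adjusted p under 0.1, each library left out, and peak windows of 1 and 10 kb. Marker means as covariates were added after seeing the data.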

Additional observations from a re-analysis of the deposited data

Results flagged for a closer look

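Mael in HET 4 was the highest value of its group at 1.904 CPM, and its gap to the next HET library, as a share of the group's range, was above Dixon's 95% critical value for 7 samples. Of the 20 groups looked at (10 genes in HET and in WT) it was the single one, and chance alone marks about 1 in 20. Without HET 4 the log2 fold change of Mael was 2.17, against 2.47 with it. HET 4 carries the total RNA label, and its part in the value was not tested.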

How the results depend on the processing

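Rnf17 was called in all 26 alternatives, with a log2 fold change of 1.95 to 2.28. Gpat2 was called in 8 of 25, Tdrd9 in 6 of 25, and Tdrd5 and Piwil2 in none of theirs. The 9 genes gave 3 calls, and 175 genes of all tested were called. These counts were 7 and 1503 with DESeq2, 7 and 1934 with limma-voom, and 7 and 1195 at an adjusted p under 0.1. With no filter they were 2 (Rnf17 and Gpat2, with Tdrd9 at an edgeR adjusted p of 0.0776) and 106. With a filter of 1 CPM in 7 libraries 4 of the genes were tested and 1 was called. Libraries labelled polyA RNA alone gave 1 and 4, 1 surrogate variable 1 and 26, the excitatory marker mean 1 and 13, the thalamic mean 1 and 17, and the ependymal mean 1 and 13. The causes were not tested. With each library left out in turn, the 9 genes gave 1 to 6 calls, and all genes together gave 11 to 1672. The 6 came without HET 6, 5 without WT 4 and 2 without HET 5, and 1 (Rnf17) without any other single library.

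With the replicate block, 1 of the genes and 10 of all genes were called. The same-numbered libraries correlated between -0.28 and 0.33, and 1 of 7 correlated best with its own number, so the block joins libraries that share only a number.

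Somatic Tudor-domain genes, with 0 calls, had 2 with DESeq2, 1 with limma-voom, 2 at an adjusted p under 0.1, and 0 to 2 with a library left out. Repressors had 1, 2, 1 and 0 to 2 in the same order, acyltransferases 1, 1, 1 and 0 to 1, Argonaute genes 1, 3, 2 and 0 to 2, and helicases 1 with limma-voom. The single call in the list of other germ cell genes was lost (0) with 1 CPM in 7 libraries, the block and polyA RNA libraries. It was also lost with the surrogate variable and each marker mean, and the list gave 0 to 1 with a library left out. The log2 fold change of Piwil2 was -0.05 without HET 2, -0.11 without HET 5, -0.07 without WT 4 and -0.07 without WT 5, in a range of -0.11 to 0.18 over the 14 fits. A window of 1 kb left 2 genes with a peak in the HET list and 2 in the WT list. Mov10l1 had 25 counts in HET and 17 in WT, and a difference was not detectable at this depth.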
